A study of Mus musculus with 4 samples.

Results

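The miR-506 family of the mouse X chromosome was measured as mature miRNA reads in small RNA libraries from whole testis. Its members were taken by name: 20 hairpin names (miR-463, miR-465a to miR-465d, miR-470, miR-471, miR-741, miR-742, miR-743a, miR-743b, miR-871, miR-878, miR-880, miR-881, miR-883a, miR-883b, miR-201, miR-547 and miR-509), both arms of each. Reads of 18 to 25 nt that the deposited table files as mature miRNA were summed, and each sequence was counted once per library. The 3p arms of miR-465a, miR-465b and miR-465c have 1 identical reference sequence and were joined, so that 40 reference names gave 38 arms. Of these arms 33 had at least 1 such read, of 985 mouse miRNA arms with a read, and 31 of them passed the abundance filter of the genotype test, at least 1 CPM (a read per 1000000 of the library) in at least 2 libraries. The libraries came from testes of 16-day-old mice, 2 from wild-type mice and 2 from mice that the labels describe as Hsf5 knockdown, while the deposited table names the same libraries as knockouts. Hsf5 encodes a heat shock factor of male germ cells. The labels give neither strain nor the agent or allele behind the knockdown, and tie no litter or day to the replicate numbers.

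A miRNA hairpin is cut by Drosha and Dicer into a duplex, and 1 strand of it, from the 5' side (5p) or the 3' side (3p) of the hairpin, is usually kept in an Argonaute protein. Bases 2 to 8 of that strand, the seed, pair with target mRNAs, so a shift of the 5' end by a single base gives a different seed. The miR-506 family lies between Slitrk2 and Fmr1 on the mammalian X chromosome, evolves fast, and is expressed mainly in the testis, in germ cells and Sertoli cells. Most genes of the X chromosome are silenced in pachytene spermatocytes, the most advanced germ cells of a testis of this age.

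The mature sequences of the 12 most abundant arms are shown first, because the levels, the arm choice and the end forms below all refer to them. They are RefSeq's, from its annotation of GRCm38.p6, with the seed (bases 2 to 8) in capitals. The miR-465 5p arms share the seed AUUUAGA, also with miR-465d-5p, and miR-743a-3p and miR-743b-3p share AAAGACA.
miR-465a-5p: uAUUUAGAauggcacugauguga
miR-465b-5p: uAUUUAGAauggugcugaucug
miR-465c-5p: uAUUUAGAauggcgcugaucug
miR-743a-3p: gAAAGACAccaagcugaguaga
miR-743b-3p: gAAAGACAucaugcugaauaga
miR-465a/b/c-3p: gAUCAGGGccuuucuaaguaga
miR-881-3p: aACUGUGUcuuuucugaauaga
miR-470-5p: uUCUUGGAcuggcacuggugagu
miR-871-3p: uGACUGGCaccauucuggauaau
miR-741-3p: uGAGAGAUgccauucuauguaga
miR-878-3p: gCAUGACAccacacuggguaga
miR-878-5p: uAUCUAGUuggaugucaagaca

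miR-465b-5p and miR-465c-5p differ by the single substitution U13C, counted from the 5' end of miR-465b-5p. miR-743a-3p and miR-743b-3p differ by 3 substitutions (C9U, A12U and G18A from miR-743a-3p), all outside the seed. The seeds AUUCAGA (miR-871-5p and miR-743a-5p) and AACUGCA (miR-883a-3p and miR-883b-3p) were also shared by 2 arms each. Of the family's seeds only that of miR-743b-5p, GUUCAGA, was the reference seed of a mouse miRNA outside the family, miR-6948-5p. By seed, the AUUUAGA arms made up 18.5%, 19.3%, 18.2% and 20.1% of the family's mature reads in wild type 1, wild type 2, knockdown 1 and knockdown 2, the order used for all values by library.

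The hairpins lay in 2 groups on the minus strand of the X chromosome of GRCm39. The first group held 19 hairpins over 62.4 kb, chrX:65820363-65882731, with Slitrk2 and Gm1140 as the nearest protein-coding genes. In it, Mir881 spans chrX:65845550-65845627 and Mir470 spans chrX:65857557-65857631, neither within another gene of GENCODE M39. Mir742, Mir883a, Mir883b and Mir471 lay in introns of the long non-coding gene Gm62077, and no member hairpin overlapped an exon of another gene. The miR-465 genes formed a run of 6 hairpins at the end of that group. The second group, Mir201, Mir547 and Mir509, lay 1149 kb away beside Fmr1, at chrX:67031702-67053785. It gave 0.130%, 0.196%, 0.210% and 0.0845% of the family's mature reads, so nearly all of them came from the first group.

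The libraries held 9260452 to 11117460 counted reads, of which 1393676 to 1998793 were mature miRNA reads of 18 to 25 nt. A count of 0 allows a level of up to 0.270 to 0.324 reads per 1000000 counted reads (3 counts). Per 1000000 mature miRNA reads, the scale of the levels below, the same 3 counts stand for a higher value. These floors cover counting error only, since PCR copies cannot be told apart without molecular identifiers. Knockdown replicate 2 stood apart over all tested miRNAs: its log CPM correlated with those of the other libraries at 0.952 to 0.958, and the other pairs at 0.982 to 0.984. Its scaling factor from edgeR's TMM method, which equalises the bulk of miRNAs, was 0.675, against 1.10 to 1.17, so that TMM raises its values. Levels below are therefore given as RPM, reads per 1000000 mature miRNA reads, and differences by genotype from the TMM fit. The marker miRNAs of spermatocytes (miR-34 and miR-449) summed to 6348, 10618, 8576 and 7740 RPM, those of Sertoli cells to 5210, 4629, 5102 and 2339, and the liver miRNA miR-122-5p stayed at 0.718 to 3.78 RPM.

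The family made up 29.3%, 26.04%, 24.99% and 32.6% of all mature miRNA reads. The wild-type libraries averaged 27.7% ± 2.28 and the knockdown libraries 28.8% ± 5.37 (SD, n = 2 each), and the knockdown libraries lay on either side of the wild type. An exact two-sided permutation test gave p = 1.0, where 0.33 is the smallest p that 2 against 2 libraries allow. In whole tissue, fewer cells of a type and less RNA per cell cannot be told apart, and p-values here measure the spread between these libraries, which the labels call biological replicates. Few arms carried the reads: miR-881-3p and miR-470-5p together gave 50.4%, 46.0%, 47.5% and 48.1% of the family, and the 6 most abundant arms 87.6%, 85.4%, 83.8% and 94.3%.

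On the RPM scale, miR-470-5p had the most even levels of the abundant arms, with 69160.2, 63562, 69809 and 70228 RPM. miR-881-3p stood at 78226, 56205, 48782 and 86554 RPM, and its knockdown libraries held both the lowest and the highest value. miR-871-3p measured 31329.9, 29587, 26025 and 58306 RPM, with knockdown 2 well above the rest. By RPM, the knockdown libraries differed from each other by more than the wild-type libraries did for miR-881-3p and miR-871-3p, and by less for miR-470-5p. TMM, as stated above, raises the values of knockdown 2.

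miR-465c-5p measured 32444, 30694, 28403 and 39794 RPM, and its near-twin miR-465b-5p 18997, 16334, 14642 and 23794 RPM. In both the order of the libraries was the same, with knockdown 1 lowest and knockdown 2 highest. miR-465a-5p, of the same seed, ran the other way in knockdown 2, at 2609.6, 3186, 2403 and 1748 RPM. The miR-465 genes are tandem copies, and reads of identical copies could not be assigned to a single gene.

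miR-741-3p had 26185, 25941, 21839.6 and 28583 RPM. miR-465a/b/c-3p had 10343, 10491, 11386 and 4662 RPM, with knockdown 2 below 0.5 of each other library. The paralogues miR-743a-3p (5464, 6668, 6193 and 3032 RPM) and miR-743b-3p (3684, 3946, 3702 and 1731 RPM) followed the same order in knockdown 2. The arms of miR-878 went opposite ways in that library: miR-878-3p measured 3112, 3269, 4909.9 and 500.1 RPM, and miR-878-5p 1967, 1705, 1826 and 3624 RPM. Of the others, miR-883a-3p, just below these in rank, measured 3212, 3143, 3984 and 414 RPM.

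**Figure D1:**
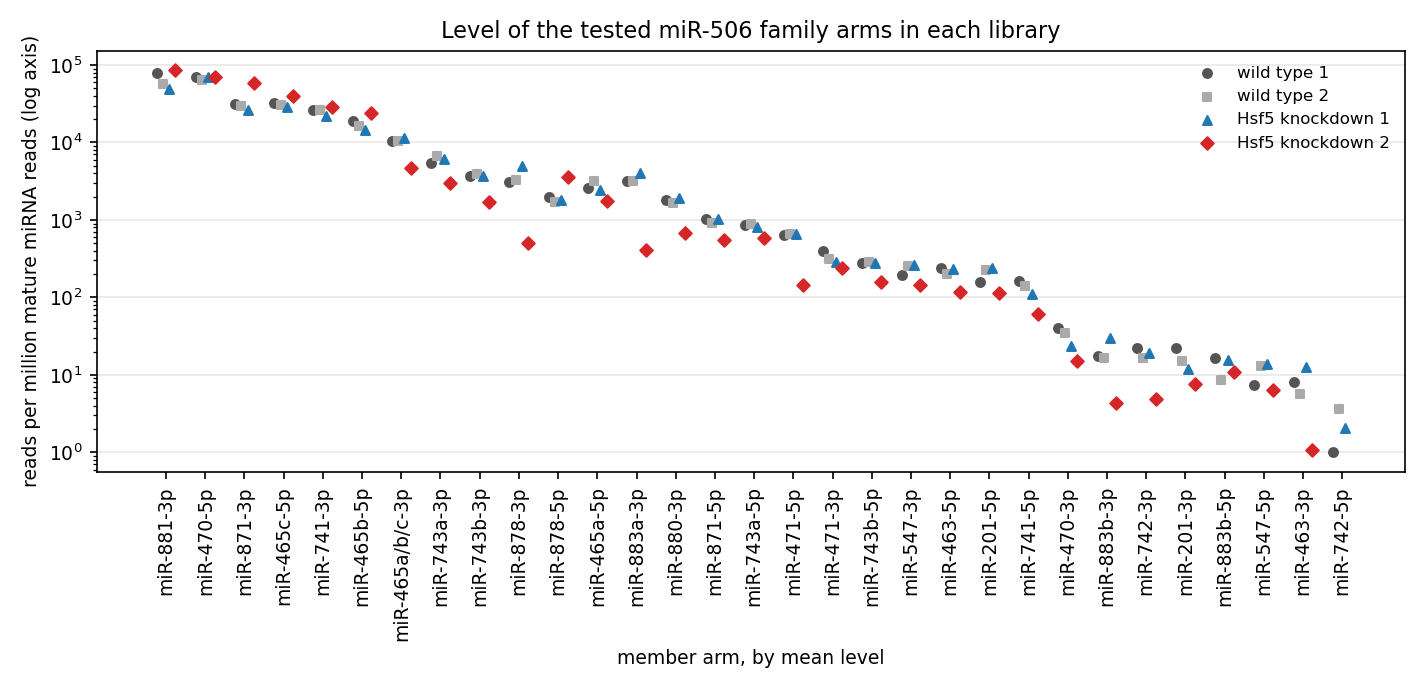
Level of the 31 tested arms in each library, in reads per 1000000 mature miRNA reads on a log axis, with 1 symbol per library and the arms ordered by mean level; a value of 0 (miR-742-5p in knockdown 2) is not drawn. Knockdown 2 lies above the other libraries for miR-871-3p (58306) and miR-878-5p (3624), and below them for miR-878-3p (500.1) and miR-883a-3p (414).

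The remaining arms were far less abundant, from miR-880-3p with 1785, 1652, 1918 and 688 RPM down to miR-742-5p with 1.0, 3.59, 2.05 and 0 RPM. No mature read of 18 to 25 nt was found for miR-509-5p, miR-509-3p, miR-880-5p, miR-881-5p and miR-465d-3p, and miR-465d-5p and miR-883a-5p had too few for the test. miR-509 and miR-880-5p also had 0 reads under any other annotation class, which the depth limits as given above.

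No member arm was called by genotype. With edgeR's quasi-likelihood F test, 0 of 31 members passed an adjusted p of 0.05 (Benjamini-Hochberg over the 688 tested arms), against a background of 0.0% of all tested arms, and 0 members had an unadjusted p below 0.05, as had 6 of all 688. DESeq2 called 0 members, beside a background of 0.145%. The adjusted p of every member was 0.996. Fitted differences (knockdown minus wild type) were above 0 for 14 members and below 0 for 17, with a median of -0.06 log2 units beside 0.05 over all tested arms. Scaled to the mature miRNA reads without TMM, 10 were above 0 and 21 below, with a median of -0.32 beside -0.23 over all arms.

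The differences furthest above 0 belonged to miR-878-5p, 1.09 ± 0.57 log2 units (standard error), and miR-871-3p, 1.01 ± 0.67. The other arms of the most abundant 6 lay between 0.40 ± 0.53 (miR-741-3p) and 0.60 ± 0.57 (miR-465b-5p), with miR-881-3p at 0.50 ± 0.65, miR-470-5p at 0.47 ± 0.53 and miR-465c-5p at 0.57 ± 0.56. Without TMM, miR-741-3p lay at -0.05 ± 0.38 and thus on the other side of 0. The next arms stood closer to 0, with miR-465a/b/c-3p at -0.15 ± 0.41, miR-743a-3p at -0.13 ± 0.38, miR-743b-3p at -0.24 ± 0.36, miR-465a-5p at -0.14 ± 0.36 and miR-878-3p at -0.20 ± 0.69. With 2 libraries a group the test had limited reach: on simulated counts of these 688 arms it recovered 53.9% of 4-fold changes at the fitted spread.

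**Figure D2:**
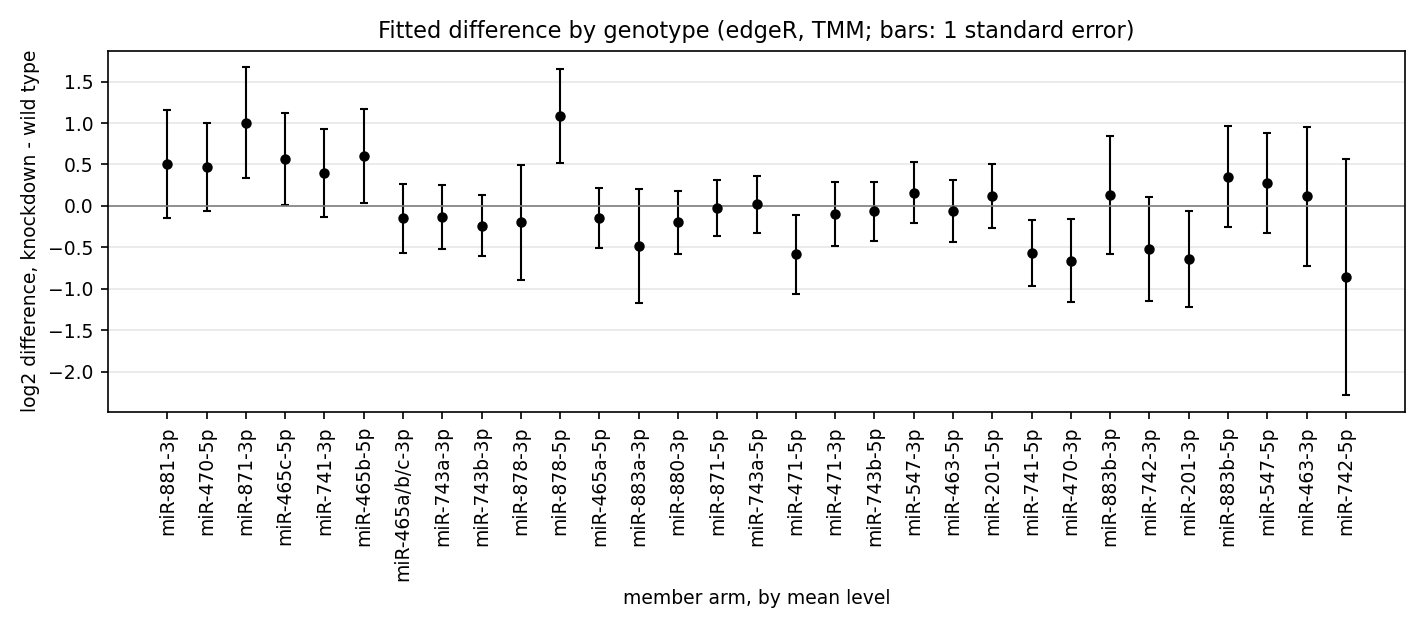
Fitted log2 difference, knockdown minus wild type, for the 31 tested arms ordered by mean level, with bars of 1 standard error on each side. No arm passed the test (adjusted p 0.996 for each), and miR-878-5p (1.09) and miR-871-3p (1.01) lie furthest above 0.

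The outcome rested on the pair of knockdown libraries together. Without knockdown replicate 1, which leaves a lone knockdown library that is assumed to vary like the wild type, edgeR's test called 11 members, beside a background of 30.5% of 623 tested arms. In that fit 12 members lay above 0 and 19 below, with a median of -0.13 log2 units beside -0.08 over all tested arms. Among the 12 most abundant arms the differences ran from -1.99 (miR-878-3p) to 1.66 (miR-878-5p). Without knockdown replicate 2 the same test called 0 members and 6 of 661 arms, 0.908%.

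Groups that did not overlap were few. By RPM, the lower knockdown value exceeded the higher wild-type value for 1 of 31 members, miR-470-5p, beside 6.54% of all tested arms. The knockdown values were both below the wild-type values for 6 members (miR-201-3p, miR-465a-5p, miR-470-3p, miR-471-3p, miR-741-5p and miR-743a-5p), beside 20.6% of all tested arms. Knockdown replicate 2 alone was at or below 0.5 of the lowest other library for 10 of the 31, beside 35.6% of all arms, and at or above 1.5 times the highest for miR-871-3p and miR-878-5p, beside 6.1%. Knockdown replicate 1 was at or above 1.5 times the highest other library for 3 members (miR-463-3p, miR-878-3p and miR-883b-3p), beside 7.7%, and at or below 0.5 of the lowest for 0, beside 4.22%. On the RPM scale, endothelial miR-126a (4428, 4774, 4181 and 1583 RPM), the summed blood marker miRNAs (115, 142, 159 and 67.0 RPM) and the Sertoli sum above were also low in knockdown replicate 2. Of the blood list, miR-150-5p had 56.5, 76.8, 98.6 and 21.1 RPM, and miR-451a 28.0, 33.0, 28.8 and 30.2. After TMM scaling these sums were still lowest there but closer to the other libraries. Blood stood at 105, 123, 136 and 99.2 CPM, Sertoli at 4748, 4005, 4367 and 3466, and miR-126a at 4035, 4130, 3579 and 2346. The summed marker miRNAs of spermatogonia (622, 573, 537 and 590 RPM) and of muscle (1771, 1593, 1469 and 1955 RPM) were not, nor was the spermatocyte sum above. Single members differed within these lists. Of the spermatocyte list, miR-34c-5p had 4634, 7642, 5956 and 6991 RPM, and miR-34b-3p 1392, 2365, 2058 and 551. Of the spermatogonia list, miR-292a-5p had 290, 240, 152 and 361 RPM, and miR-146a-5p 221, 242, 289 and 148. After TMM scaling the spermatocyte sum was 5784, 9186, 7341 and 11469 CPM, and the spermatogonia sum 563, 494, 459 and 874. The part of these cell types in the family's values was not tested.

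Other miRNAs of the X chromosome outside the family were set beside it. Of 43 tested arms of 33 such names, 25 lay above 0 by genotype and 18 below, with a median of 0.08 log2 units and 0 called by edgeR's test, beside the same background of 0.0%. Their sum was 17594, 17491, 18168 and 13068 RPM, below that of miR-881-3p alone in each library. The most abundant were miR-351-5p, of the miR-322/miR-503 cluster, with 6352, 6114, 6975 and 3091 RPM, and miR-532-5p with 2072, 2000.5, 1781 and 2855 RPM.

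By mature-class reads, hairpins with at least 100 such reads in every library were read mainly from one side, apart from miR-878 and miR-471. The 5p arm gave 43.9%, 45.6%, 48.2% and 43.3% of the family's mature reads, with means of 44.8% ± 1.20 in wild type and 45.7% ± 3.51 in knockdown (SD, n = 2 each; exact permutation p = 1.0). Behind this near balance stood hairpins read mainly or almost wholly from 1 side. miR-470 gave 99.94% to 99.98% 5p reads, and miR-465a/b/c together 83.9%, 82.7%, 80.0% and 93.3%. miR-741 gave 0.625%, 0.542%, 0.498% and 0.211% 5p reads, miR-871 3.21%, 2.97%, 3.78% and 0.94%, and miR-880 and miR-881 gave 0%.

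miR-878 and miR-471 were read from both sides, and in both the library that stood apart was knockdown replicate 2. For miR-878 the 5p share was 38.7%, 34.3%, 27.1% and 87.9%, from at least 6932 reads per library. For miR-471 it was 62.0%, 67.8%, 69.7% and 38.3%, from at least 711 reads. Knockdown replicate 2 thus lay above the other libraries for one hairpin and below them for the other. The libraries of knockdown lay on either side of the wild type in both (exact permutation p = 1.0 each).

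**Figure D3:**
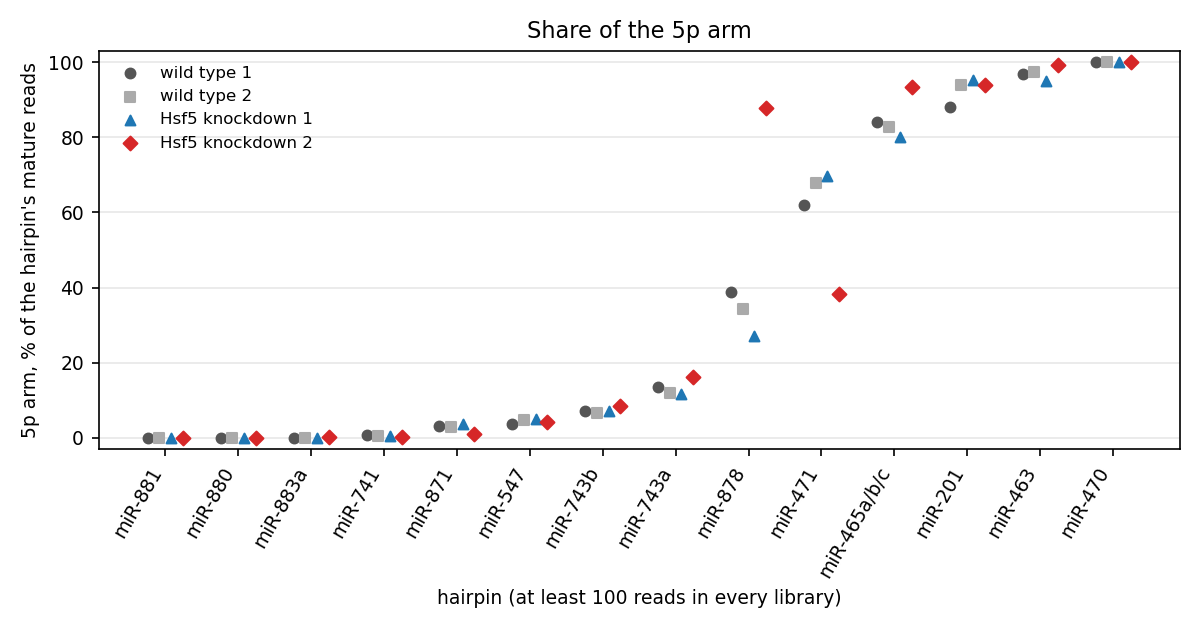
Share of the 5p arm among the mature-class reads of each hairpin with at least 100 reads in every library, 1 symbol per library. Most hairpins lie near 0% or 100%, and knockdown 2 departs from the other libraries at miR-878 (87.9%) and miR-471 (38.3%).

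The mature class of the deposited table held only part of each arm's reads. All of the family's mature-class reads lay wholly inside the reference mature sequence, as did 99.98% of those of all miRNAs. Reads with an added base at either end therefore stood in other classes: miRNA hairpin, the transposon classes LTR, LINE and SINE, or genes. To see all end forms, reads of every class were placed on the member hairpins by their first 15 bases, with a 5' end within 5 nt of the reference and up to 3 bases at the 3' end that the hairpin does not encode (a tail). This gave 2314233 family reads, of which 87.3%, 87.1%, 87.3% and 89.98% were of the mature class, 2.84%, 2.84%, 2.71% and 3.19% of the hairpin class and 9.35%, 9.58%, 9.53% and 6.43% of the 3 transposon classes together. Of the 172 untailed family sequences with at least 50 reads, 168 had all of their exact GRCm39 matches in member hairpins. Their 4 exceptions were short forms of 18 or 19 nt.

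The 5' end of miR-465a/b/c-3p was the least fixed of the described arms (those with at least 100 placed reads in every library). About as many reads began 1 base before the reference position as on it, and the 2 leading reads follow, as DNA letters with bases 2 to 8 in capitals, with the leading reads of the next most shifted arms, since the seed moves with the 5' end.
miR-465a/b/c-3p, reference 5' end: gATCAGGGcctttctaagtaga
miR-465a/b/c-3p, 1 base before: tGATCAGGgcctttctaagtaga
miR-883a-3p, reference 5' end: tAACTGCAacagctctcagtat
miR-883a-3p, 1 base after: aACTGCAAcagctctcagtatt
miR-743a-3p, reference 5' end: gAAAGACAccaagctgagtaga
miR-743a-3p, 1 base after: aAAGACACcaagctgagtaga

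Of all placed miR-465a/b/c-3p reads, 52.2%, 50.2%, 47.8% and 52.2% began 1 base before the reference. The leading read of that form had 58087 reads over the 4 libraries, and the reference read 56894. All 5 exact matches of the longer read in GRCm39 lay in the miR-465 hairpins, yet the deposited table filed it under LTR. Its seed, GAUCAGG, is the reference seed of miR-465d-3p, of which only 32 reads were placed.

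In the next most shifted 3p arms the shift went mainly the other way, by 1 base into the sequence. In miR-883a-3p the form starting 1 base after the reference made up 31.01%, 32.4%, 30.97% and 46.6% of placed reads, and its leading read stood in the SINE class. In miR-743a-3p the share was 19.6%, 21.0%, 23.2% and 19.3%, in miR-743b-3p 13.4%, 14.2%, 15.4% and 13.9%, and in miR-878-3p 15.02%, 16.4%, 18.2% and 10.7%. miR-471-3p had 13.7%, 10.1%, 12.8% and 12.9% of that form. The shifted seed of miR-878-3p, AUGACAC, is the reference seed of miR-425-5p and miR-489-3p. Those of miR-883a-3p (ACUGCAA), miR-743a-3p (AAGACAC), miR-743b-3p (AAGACAU) and miR-471-3p (AAAGGUG) belonged to none of the 1679 mouse mature names in the RefSeq table.

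The abundant 5p arms began at 1 place. At the reference 5' end lay 99.87% ± 0.00618 of miR-470-5p reads, 99.90% ± 0.0212 of miR-465c-5p reads and 99.89% ± 0.0141 of miR-465b-5p reads (SD, n = 4). Among abundant 3p arms, miR-881-3p had 97.7% ± 0.0981 and miR-741-3p 95.9% ± 1.03 there (SD, n = 4), while 2.20% of miR-741-3p reads began 1 base and 1.89% began 2 bases after it.

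miR-881-5p, with no mature-class read, was seen only through its shifted forms. It had 153, 124, 176 and 95 placed reads, and the leading one, 4 bases before the reference 5' end, had 349 reads over the libraries.
miR-881-5p, 4 bases before: tATTCAGAgagataacagtcac
Its seed, AUUCAGA, is that of miR-871-5p and miR-743a-5p.

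Over the whole family the share of reads with a shifted 5' end depended on the class. For these shares a read was shifted if its 5' end was not the most frequent one of its arm. Over all classes that end of miR-465a/b/c-3p lay before the reference, so its reads at the reference counted as shifted. Within the mature class the share was 1.499%, 1.89%, 2.20% and 0.775%, with 2.54%, 2.39%, 2.64% and 2.89% for all other miRNAs. Since the family's mature-class reads all lay inside the reference sequence, forms that start before it are missing from this share. By reads the family was lower in 4 of 4 libraries, by 1.02 percentage points on average (exact sign-flip p = 0.13, the smallest that 4 libraries allow). The direction turned with the weighting: the family was higher in 4 of 4 libraries as a mean over arms with at least 100 reads, by 0.758 points on average, and with each distinct sequence counted once, by 14.3 points (exact sign-flip p = 0.13 each). With reads of all classes the family's shares were 5.42%, 6.12%, 6.93% and 2.67%, and those of other miRNAs 5.43%, 5.11%, 5.30% and 5.82%, a mean difference of -0.13 percentage points (exact sign-flip p = 0.875). Counted from the reference 5' end instead, miR-465a/b/c-3p alone gave 63.4%, 61.8%, 59.96% and 57.8% of the shifted reads of the described arms. By genotype the family's mature-class share was 1.69% ± 0.275 in wild type and 1.49% ± 1.01 in knockdown (SD, n = 2 each; exact permutation p = 1.0).

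**Figure D4:**
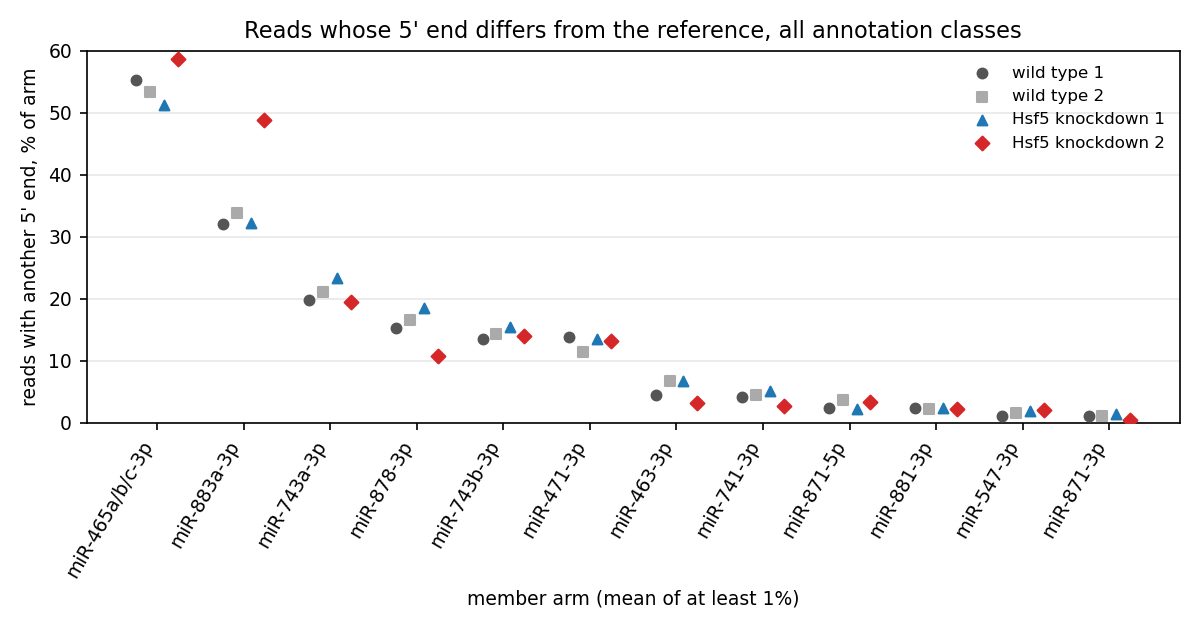
Share of placed reads of all annotation classes whose 5' end differs from the reference, for member arms with a mean of at least 1%, 1 symbol per library. miR-465a/b/c-3p lies above 50% in every library, and knockdown 2 departs from the others at miR-883a-3p (48.9%) and miR-878-3p (10.8%).

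At the 3' end, a few arms carried a U that the reference genome GRCm39 does not encode at that place. The reads below show the contrast, with the tail in capitals (T in DNA letters), beside the read in which the next hairpin base follows.
miR-465b-5p with tail: tatttagaatggtgctgatctgT
miR-465b-5p, next hairpin base: tatttagaatggtgctgatctga
miR-465c-5p, next hairpin base: tatttagaatggcgctgatctga
miR-547-3p with tail: cttggtacatctttgagtgagT
miR-547-3p, next hairpin base: cttggtacatctttgagtgaga
miR-743a-5p with tail: tattcagattggtgcctgtcatT

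In miR-465b-5p a single U tail was present on 22.2%, 23.5%, 22.5% and 19.7% of reads, and 40110 reads had the form shown, beside 11115 with the hairpin's own base. miR-465c-5p, which differs only at base 13 and has the same next base, carried that tail on 0.264%, 0.265%, 0.246% and 0.196% of reads. The tail was thus far more frequent on miR-465b-5p in 4 of 4 libraries. On miR-465a-5p it stood on 0.0585% ± 0.0521 of reads (SD, n = 4).

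miR-547-3p was found mostly with a tail: 85.2%, 84.0%, 82.7% and 82.9% of its reads had 1 added U. The form shown had 13320 reads, the reference read 586, and the read with the next hairpin base 308. miR-743a-5p carried 1 U on 45.4%, 37.9%, 36.7% and 34.6% of reads, and miR-743b-5p on 38.8%, 36.0%, 27.1% and 36.1%. The tailed reads of miR-465b-5p, miR-547-3p and miR-743a-5p shown above had no exact match in GRCm39, as had 105 of the 106 tailed family sequences with at least 50 reads. Whether the added base stands in the genome of these mice was not tested, since no strain is given.

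The other abundant arms had few tails. miR-470-5p had 3.73% ± 0.0285 and miR-881-3p 3.94% ± 0.374 tailed reads (SD, n = 4), on the latter mostly a single A (2.85% ± 0.212). miR-741-3p, at 0.46%, and miR-465c-5p, at 0.51%, had the lowest means of the described arms. For the family as a whole, tails stood on 5.47%, 5.58%, 5.38% and 4.72% of placed reads, and for other miRNAs on 9.52%, 8.89%, 8.77% and 9.59%. The family was lower in 4 of 4 libraries, by 3.91 percentage points on average (exact sign-flip p = 0.13, the smallest possible). This compares pooled reads, in which the most abundant arms weigh most, and a mean over arms was not computed. miR-465b-5p gave 33.0%, 33.3%, 30.5% and 39.6% of the tailed reads of the described arms. By genotype the family's means were 5.52% ± 0.0776 in wild type and 5.05% ± 0.467 in knockdown (SD, n = 2 each), with both knockdown libraries below both wild-type ones (exact permutation p = 0.33, the smallest possible).

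**Figure D5:**
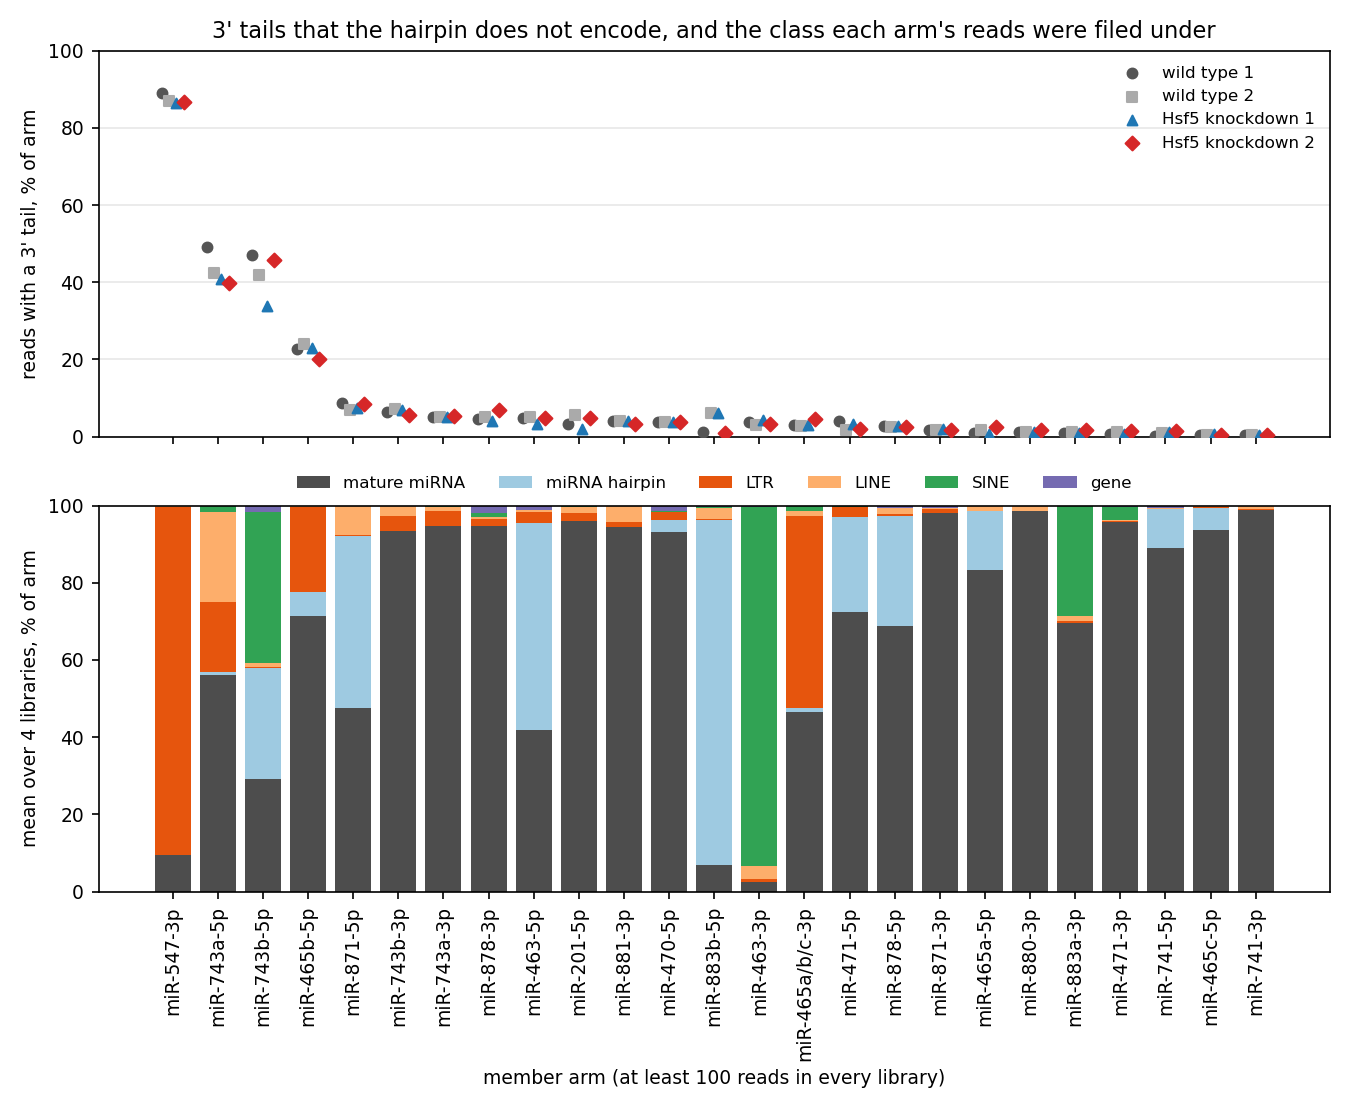
Upper panel, share of placed reads with a 3' tail that the hairpin does not encode, 1 symbol per library; lower panel, mean share of the annotation classes under which the deposited table files the reads of each arm. miR-547-3p is tailed in over 80% of reads and filed mostly under LTR (90.1%), and miR-463-3p has few tails but is filed mostly under SINE (93.2%).

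The class given to an end form set how much of an arm the mature class counted. Of miR-463-3p reads, 93.2% stood in the SINE class and 2.51% in the mature class; its leading read extends the reference by 1 hairpin base.
miR-463-3p, leading read: tgatagacaccatataaggtaga
That read had 1 exact match in GRCm39, in its own hairpin. The arm had 1845 placed reads and 51 of the mature class. For miR-547-3p the numbers were 15988 and 1521, for miR-883b-5p 1445 and 95 (its longer reads in the hairpin class), and for miR-465a/b/c-3p 140696 and 66102. For miR-881-3p, miR-470-5p, miR-871-3p, miR-741-3p and miR-465c-5p the placed reads were between 1.01 and 1.07 times the mature ones. The arm balance moved with it: by placed reads of all classes the 5p share of miR-463 was 63.8%, 61.3%, 64.7% and 71.5%, where the mature class gave 96.7%, 97.3%, 94.8% and 99.1%. For miR-743b it was 20.4%, 18.6%, 17.3% and 24.9%, where the mature class gave 7.01%, 6.73%, 7.04% and 8.45%. For miR-465a/b/c together it was 73.8%, 72.9%, 69.9% and 88.1%, below the mature-class share in each library. The genotype test on placed reads of all classes called 0 of 35 members with edgeR, again beside a background of 0.0%.

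The names of miR-465a/b/c-3p also differed between libraries in the deposited table. Its reference sequence was filed as miR-465b-3p in wild type 1 and knockdown 1 (18290 and 18773 reads), as miR-465a-3p in wild type 2 (12562 reads) and as miR-465c-3p in knockdown 2 (7269 reads). Of the 17 sequences of this arm, 14 had more than 1 name. A comparison of these 3 names between libraries would set one name's reads against 0 of another, which the joined arm avoids.

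Read length differed between arms more than between libraries. The family's mature reads had a mean length of 22.28, 22.26, 22.24 and 22.32 nt. With reads of all classes, 88.9% of miR-470-5p and 85.9% of miR-871-3p reads were 23 nt, and 89.2% of miR-881-3p reads were 22 nt (means over 4 libraries). miR-465c-5p was spread more widely, with 26.3% of 21 nt and 62.7% of 22 nt. By genotype the mean length was 22.27 ± 0.0142 nt in wild type and 22.28 ± 0.0541 nt in knockdown (SD, n = 2 each; exact permutation p = 1.0).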

How the data were processed

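The deposited table held raw read counts made by the authors, 1 line per sequence, library and annotation. It also held a ratio, the authors' scaling factor (0.499, 0.716, 0.512 and 0.539 by library), which the files show to be 1000000 divided by the mature miRNA reads and which was not used further. Per the labels' protocol, libraries were size-selected for inserts of 18 to 40 bases. The submitters' processing notes name cutadapt and mm39; the aligner and the rule that ranked annotation classes were not given in the sources used here.

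Each of 6208912 pairs of sequence and library was counted once, and each sequence got the name with most reads over the libraries. Arms with at least 1 CPM in 2 libraries were tested with edgeR 4.0.16 (robust quasi-likelihood F test, TMM, Benjamini-Hochberg adjustment at 0.05), with DESeq2 1.42.0 as an alternative. Shares were compared by exact permutation. The fit was tested on simulated data; with the biological spread set to 0.2 (fitted value 0.414) it recovered 84.9% of 4-fold changes. Members, lists and the naming rule (the 12 arms of highest mean CPM and any member called) were chosen with earlier results of these data known. Same-numbered replicates were not stated to pair. The genome was GRCm39 with GENCODE M39, and the placing of reads of all classes on hairpins was added after seeing the data.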

Additional observations from a re-analysis of the deposited data

How the results depend on the processing

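With 2 libraries a group no share could pass an exact test by genotype. For each quantity in the next sentence but 1, leaving out at least 1 of the libraries turned the direction, while other omissions kept it. The cause was not tested. Without each library in turn, the knockdown minus wild type difference ranged over -2.67 to 4.93 percentage points for the family's share, -1.53 to 3.43 for the 5p share and -0.92 to 0.51 for the shifted 5' ends, and over -0.0266 to 0.0499 nt for mean length. The family's share was -0.478 without wild type 2. Members called ranged from 0 to 11 and all arms called from 0 to 190, in each case highest without knockdown replicate 1. Without single libraries the log2 differences of the named arms ranged over -0.51 to 1.04 (miR-881-3p), 0.03 to 0.77 (miR-470-5p), -0.27 to 1.62 (miR-871-3p), -0.20 to 1.02 (miR-465c-5p), -0.30 to 0.82 (miR-741-3p), -0.32 to 1.11 (miR-465b-5p), -0.47 to 0.0856 (miR-465a/b/c-3p), -0.31 to -0.00382 (miR-743a-3p), -0.45 to -0.08 (miR-743b-3p), -1.99 to 0.58 (miR-878-3p), -0.0545 to 1.66 (miR-878-5p) and -0.31 to -0.01 (miR-465a-5p).

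DESeq2 and edgeR without the filter each called 1 arm, no member. Without TMM miR-741-3p lay at -0.0479, and scaled to all counted reads miR-878-3p lay at 0.0372. The shifted 5' share by genotype was 0.0886 with each distinct sequence counted once and 0.166 as a mean over arms. Set against other miRNAs it was 14.3 and 0.758, so within the mature class the family was below other miRNAs only by reads. With reads of all classes the family was above other miRNAs in wild type 2 and knockdown 1, and below them in wild type 1 and knockdown 2. The tail share by genotype was 0 in the mature class, by its construction, and -0.475 over all classes. The names as deposited give no value for the joined miR-465a/b/c-3p. A fit with the replicate number as a block also called 0 members and 0 of 688 arms; same-numbered libraries deviated from their group means with a correlation of 0.0119, so the numbers were not taken as pairs.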

Other observations

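For several arms of lower abundance the reference mature sequence was not the leading read. In miR-871-5p the read 1 hairpin base longer, tattcagattagtgccagtcatgt, made up 41.1%, 46.8%, 43.4% and 42.3% of placed reads in wild type 1, wild type 2, knockdown 1 and knockdown 2, and the reference read 35.7%, 29.9%, 29.4% and 33.4%. The longer read led in 4 of 4 libraries. In miR-883b-5p the 24 nt reads, 2 hairpin bases longer than the reference, made up 76.3% of placed reads, and in miR-463-5p 50.6% were 23 nt, 1 base longer (means over 4 libraries). In miR-878-5p the read with 1 more hairpin base gave 30.6%, 28.1%, 25.2% and 28.4%, below the reference read at 53.5%, 54.4%, 51.7% and 59.1%. These longer reads stood in the hairpin class of the deposited table.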
